A study of Bos taurus with 20 samples.

Results

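The genes described here control how fast skeletal muscle breaks down its proteins and how far it holds back making new ones. They were chosen by symbol: FBXO32, TRIM63, FOXO1, FOXO3, EIF4EBP1, CAPN1, CAPN3, CAST, CTSL and DDIT4, with all probe sets that the platform annotation gives to exactly 1 of these symbols. The rule found 9 probe sets of 7 of the 10 genes among 24016 probe sets other than array controls. FBXO32 and CAST had 2 probe sets each, and EIF4EBP1, CAPN1, CAPN3, CTSL and DDIT4 had 1. No probe set was named for TRIM63, FOXO1 or FOXO3 in the annotation used here, and these 3 genes were not analysed here. All 9 probe sets lay outside the dimmest 40% of probe sets, which were left out of the tests, so each was among the 14409 tested.

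The data came from Musculus longissimus dorsi, the long back muscle, of 20 Holstein x Charolais F2 bulls, the second generation of a cross between a dairy and a beef breed. The study set muscle rich in intramuscular fat (IMF), stored between the fibres, against muscle poor in it, with 10 bulls of high and 10 of low IMF and 1 Affymetrix array for each animal. Neither the fat contents behind the words high and low nor the age of the bulls are given in the sources used here. In each IMF group 5 titles carry an S before the animal's number and 5 do not. What the S stands for is not stated, and these sets are called the S titles and the other titles. Within an IMF group, replicates 6 to 10 are the S titles and replicates 1 to 5 the others. Levels are log2(signal + 1), and differences are on this log2 scale, which understates the change of dim probe sets.

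Muscle protein is broken down by the ubiquitin and proteasome route, by lysosomes and by calcium-dependent proteases. FBXO32 (atrogin-1) and TRIM63 (MuRF1) are the muscle ubiquitin ligases that rise in most forms of wasting, and the FOXO transcription factors switch them on when insulin signalling through AKT is low. CTSL is a lysosomal protease, CAPN1 and CAPN3 are calpains, which cut structural proteins of the fibre, and CAST (calpastatin) is the protein inhibitor of CAPN1, known in cattle for its part in meat tenderness. EIF4EBP1 (4E-BP1) binds the cap-binding factor eIF4E and blocks translation unless mTORC1 phosphorylates it, and DDIT4 (REDD1), a stress- and glucocorticoid-induced protein, lowers mTORC1 activity.

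The arrays carried muscle RNA. Of 10 muscle fibre markers 7 had a probe set, and their summed signal ran from 90530 to 109100 over all arrays. The median signal of an array ran from 51.6 to 67.6, and the dimmest 2 were high IMF replicates 6 and 9, both S titles (51.6 and 56.6). A set of 4 arrays had a signal over 2000 for albumin, a liver transcript, namely low IMF replicate 3 and high IMF replicates 6, 8 and 10. High IMF replicate 6 is thus in both sets. The summed signal of the adipocyte markers (7 of 8 with a probe set, none at 0 on any array) had medians of 930.6 in low and 1950 in high IMF among the other titles, and 2159 and 6927 among the S titles. Signals reached 7900 for FABP4 and 8560 for CIDEC, and no more than 1380 for any other of these markers, so the sum need not reflect all 7. The dim and the albumin arrays fell mostly among the high IMF S titles, and the median adipocyte sum was higher in high IMF in both title series. Values without the 2 dimmest and without the 4 albumin arrays are given below. The part of these differences in the results was not tested further. In a piece of muscle, fewer cells of a type and less RNA per cell cannot be told apart.

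The widest differences among these genes lay between the title series, not between the IMF groups. Averaged over both IMF groups, 7 of the 9 probe sets passed limma's test between S and other titles (adjusted p under 0.05). In 5 of them, the 2 of FBXO32, the 2 of CAST and that of CTSL, the S titles were lower, as they were in 34.7% of all probe sets tested. In the other two, EIF4EBP1 and CAPN1, the S titles were higher, as in 33.4% of all. The share of 7 of 9 stands beside 68.1% of all probe sets called in either direction, so a call between the title series is the common case on these arrays. CAPN3 and DDIT4 did not pass. These 7 calls held under each alternative that gives this difference and without each array in turn.

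EIF4EBP1, the translation repressor, showed the widest gap. The 5 low IMF S titles read 8.68, 8.72, 9.08, 9.13 and 9.13, and the 5 high IMF S titles 7.84, 8.35, 8.41, 8.57 and 8.66. The low IMF animals of the other titles read 6.82, 7.0, 7.02, 7.71 and 7.79, and the high IMF ones 6.72, 7.21, 7.37, 7.50 and 7.61. Each S title thus lay above each of the others. The S titles averaged 8.66 ± 0.40 and the others 7.27 ± 0.38 (SD, n = 10 each). The difference of 1.38 (SE 0.15, limma adjusted p = 1.14e-07) is a 2.61-fold higher signal in the S titles.

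Among the S titles, EIF4EBP1 was also the member with the widest difference between the IMF groups. The lowest of the 5 low IMF animals, at 8.68, lay just above the highest of the 5 high IMF animals, at 8.66, so the groups did not overlap. The value of 8.66 came from replicate 6, the array with the lowest median signal. Its median signal was 51.6, against 63.4 and 63.2 for low IMF replicates 9 and 10, the 2 lowest low IMF animals (8.68 and 8.72). Centring arrays on their medians places replicate 6 above both, so on centred arrays the groups overlap. High IMF averaged 8.37 ± 0.32 and low IMF 8.95 ± 0.23 (± SD of 5 animals), which gives a difference of -0.58 (SE 0.21, 95% confidence interval -1.01 to -0.15), or a 1.5-fold lower signal in high IMF. By an exact permutation test on the uncentred values, two-sided, p was 0.00794, the smallest that 5 against 5 animals can give. Of the 9 member probe sets, that of EIF4EBP1 was the only one without overlap in the S titles on these values. Among all probe sets 1.18% had every high IMF S title below every low IMF one. The limma p was 0.0102 before adjustment, as 8.47% of all probe sets had a p under 0.05 with high IMF lower, and over all probe sets EIF4EBP1 did not pass (adjusted p = 0.454). No probe set passed in that comparison (0% of 14409), and the lowest adjusted p was 0.427.

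In the other titles the IMF groups overlapped almost fully for EIF4EBP1, with averages of 7.28 ± 0.35 for high and 7.27 ± 0.45 for low IMF (± SD of 5 animals). The difference was 0.02 (SE 0.21, interval -0.41 to 0.45; exact permutation p = 0.952), and it turned to -0.05 without the 4 arrays with an albumin signal over 2000. The interaction, which is the IMF difference in the S titles minus that in the other titles, was -0.60 (SE 0.29, interval -1.21 to 0.01). It did not pass limma's test (p = 0.0523 before adjustment, adjusted p = 0.866). Centring each array on its median gave -0.57 (adjusted p = 0.96). On centred arrays the S title difference was -0.53 (SE 0.22, limma adjusted p = 0.553). Without the 2 dimmest arrays the S title difference was -0.51 and the interaction -0.52, and without the 4 albumin arrays they were -0.85 and -0.80.

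**Figure D1:**
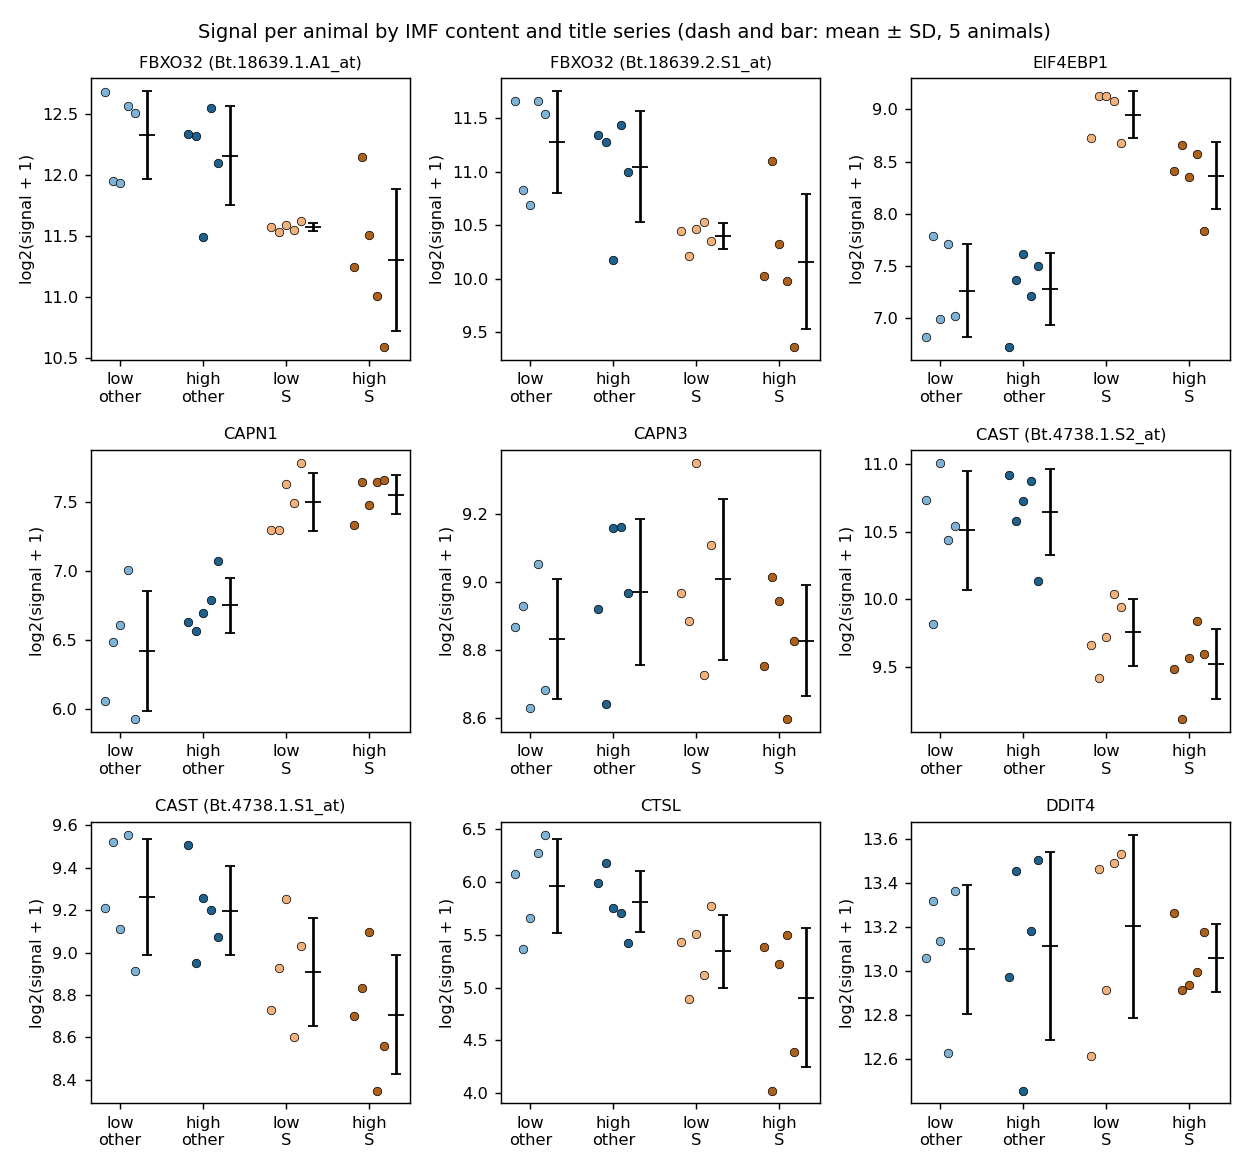
Each panel plots log2(signal + 1) of 1 member probe set, with 1 point for each animal and a dash and bar for the mean ± SD of 5 animals, by IMF content (low, high) and title series (other, S). The values are not centred on array medians. In EIF4EBP1 and CAPN1 the 10 S titles lie above the 10 other titles, and in CAPN3 and DDIT4 the series overlap. In EIF4EBP1 the 5 high IMF S titles also lie below the 5 low IMF ones on these uncentred values.

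DDIT4, which acts on mTORC1 upstream of EIF4EBP1, was bright and alike in both title series. It averaged 13.13 ± 0.30 in the S titles and 13.11 ± 0.34 in the others (SD, n = 10 each), a difference of 0.02 with an interval of -0.28 to 0.32. High IMF animals differed from low IMF animals by -0.14 in the S titles (SE 0.20, interval -0.57 to 0.28) and by 0.01 in the others (SE 0.20, interval -0.41 to 0.44). In the S titles the low IMF animals spread from 12.61 to 13.53 and the high IMF animals from 12.92 to 13.27, inside the range of the former. The interaction was -0.16 (SE 0.29, adjusted p = 0.935).

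FBXO32, the ubiquitin ligase atrogin-1, was lower in the S titles on both of its probe sets. On Bt.18639.1.A1_at the low IMF animals of the other titles read 11.93, 11.95, 12.51, 12.56 and 12.69, and the high IMF ones 11.49, 12.10, 12.32, 12.34 and 12.55. The low IMF S titles read 11.53, 11.55, 11.58, 11.59 and 11.62, and the high IMF S titles 10.59, 11.01, 11.25, 11.51 and 12.15. The title series overlapped: 4 of the 10 other titles lay at or below the highest S title (12.15, high IMF replicate 6), and 7 of the 10 S titles at or above the lowest of the others (11.49, high IMF replicate 3). The S titles averaged 11.44 ± 0.41 and the others 12.24 ± 0.37 (SD, n = 10 each), a 1.75-fold lower signal in the S titles (difference -0.81, SE 0.17, limma adjusted p = 0.00027). On Bt.18639.2.S1_at the difference was -0.88 (SE 0.20, adjusted p = 0.000575), or 1.84-fold lower.

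The 5 low IMF S titles were close together in FBXO32, with an SD of 0.03 on the first probe set and 0.12 on the second, while the 5 high IMF S titles spread with SDs of 0.58 and 0.63. The median SD over all probe sets tested was 0.23 in the low IMF and 0.25 in the high IMF S titles. The 2 extreme animals of the high IMF S titles, replicate 9 at 10.59 and replicate 6 at 12.15, are the 2 arrays with the lowest median signals. They lie on opposite sides of the group.

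Between the IMF groups FBXO32 did not pass. On the first probe set high IMF differed from low IMF by -0.27 in the S titles (SE 0.24, interval -0.76 to 0.22) and by -0.17 in the others (SE 0.24, interval -0.66 to 0.32). On the second probe set the differences were -0.24 (SE 0.28) and -0.23 (SE 0.28). The S title differences depend on single arrays: they were -0.48 and -0.48 without high IMF replicate 6, -0.09 and -0.04 without replicate 9, and -0.52 and -0.56 without the 4 albumin arrays (limma adjusted p = 0.562 and 0.58). The interactions were -0.10 (SE 0.33, adjusted p = 0.963) and -0.02 (SE 0.39, adjusted p = 0.995). The second turned to 0.02 with arrays centred on their medians and to 0.04 after quantile normalization.

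CAPN1, the mu-calpain, was higher in the S titles. The other titles read 5.93, 6.05, 6.48, 6.61 and 7.0 in low IMF and 6.56, 6.63, 6.69, 6.78 and 7.07 in high IMF. The S titles read 7.29, 7.29, 7.49, 7.63 and 7.78 in low IMF and 7.33, 7.48, 7.64, 7.64 and 7.65 in high IMF. The 2 title series did not overlap, and a lack of overlap of 10 against 10 animals was found for 2 of the 9 member probe sets, CAPN1 and EIF4EBP1, and for 19.6% of all probe sets. The signal was 1.92-fold higher in the S titles (difference 0.94, SE 0.12, limma adjusted p = 9.89e-07).

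CAPN1 was the member with the widest IMF difference in the other titles. All 5 high IMF animals lay above the low IMF median, while the groups overlapped. The difference was 0.33 (SE 0.17, interval -0.01 to 0.68), with an exact permutation p of 0.167 and a limma adjusted p of 1. In that comparison 0% of all probe sets passed, with a lowest adjusted p of 0.647, and 3.38% had an unadjusted p under 0.05. In the S titles the difference was 0.05 (SE 0.17), which turned to -0.01 without the 2 dimmest arrays, and the interaction was -0.28 (SE 0.24, adjusted p = 0.872).

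CAPN3, the muscle-specific calpain bound to titin, held its level across the title series. It averaged 8.92 ± 0.21 in the S titles and 8.90 ± 0.20 in the others (SD, n = 10 each), a difference of 0.02 with an interval of -0.18 to 0.21. The sign of its IMF difference was opposite in the series. It was -0.18 in the S titles (SE 0.13, interval -0.45 to 0.09) and 0.14 in the others (SE 0.13, interval -0.13 to 0.41). The interaction of -0.32 (SE 0.18) had an unadjusted limma p of 0.0994 and an adjusted p of 0.866.

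CAST, the calpain inhibitor, was lower in the S titles on both probe sets, by different amounts. On Bt.4738.1.S2_at the other titles read 9.82, 10.44, 10.54, 10.74 and 11.01 in low IMF and 10.13, 10.58, 10.73, 10.88 and 10.92 in high IMF. The S titles read 9.41, 9.66, 9.72, 9.95 and 10.04 in low IMF and 9.11, 9.48, 9.57, 9.59 and 9.84 in high IMF. Only low IMF replicate 2 of the other titles lay within the range of the S titles. The difference was -0.94 (SE 0.14, limma adjusted p = 7.21e-06), a 1.92-fold lower signal in the S titles. On Bt.4738.1.S1_at it was -0.42 (SE 0.11, adjusted p = 0.00262), or 1.34-fold lower, with S titles from 8.35 to 9.25 and other titles from 8.91 to 9.56.

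No IMF difference in CAST passed. On the first of these probe sets it was -0.24 in the S titles (SE 0.20) and 0.14 in the others (SE 0.20), with an interaction of -0.37 (SE 0.28, adjusted p = 0.866). On the second it was -0.20 (SE 0.16) and -0.06 (SE 0.16), with an interaction of -0.14 (SE 0.23, adjusted p = 0.93). That interaction was 0.02 without the 4 albumin arrays.

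CTSL, the lysosomal protease cathepsin L, was the dimmest member. Its signal ran from 15.3 to 86.3 before the log, where the median of all probe sets on an array was 51.6 to 67.6. The S titles ran from 4.03 to 5.77 and the others from 5.37 to 6.45, a 1.7-fold lower signal in the S titles (difference -0.76, SE 0.19, limma adjusted p = 0.0014). In the S titles the low IMF animals read 4.89, 5.12, 5.43, 5.51 and 5.77, and the high IMF animals 4.03, 4.39, 5.23, 5.39 and 5.50. The 2 lowest values came from the 2 dimmest arrays. The IMF difference in the S titles was -0.44 (SE 0.27), and without those arrays it was 0.03. The interaction of -0.28 (SE 0.38, adjusted p = 0.91) became 0.18 without them.

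The IMF differences of the 9 probe sets in the S titles were mostly below 0, and so were those of most other probe sets. In the S titles high IMF was lower in 8 of 9, and the median difference was -0.24, against 67.5% of all probe sets and a median of -0.08. In the other titles 4 of 9 were lower, with a median of 0.01 among the members and 0.01 among all. The interaction was below 0 in 9 of 9, with a median of -0.28, against 69.3% of all and a median of -0.11. No probe set passed for the interaction (0% of 14409), where the lowest adjusted p was 0.866 and 5.34% had an unadjusted p under 0.05, none of them a member.

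With arrays centred on their medians the interaction was below 0 in 8 of 9 members (median -0.25) and in 63.9% of all probe sets (median -0.07). Without the 2 dimmest arrays the figures were 8 of 9 (median -0.15) and 51.4% (median -0.01). Averaged over both series, high IMF was lower in 8 of 9 members, with a median of -0.13, against 59.8% of all, with a median of -0.03. In that comparison 0% of all probe sets passed, the lowest adjusted p was 0.417, and 7.31% had an unadjusted p under 0.05, none of them a member.

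**Figure D2:**
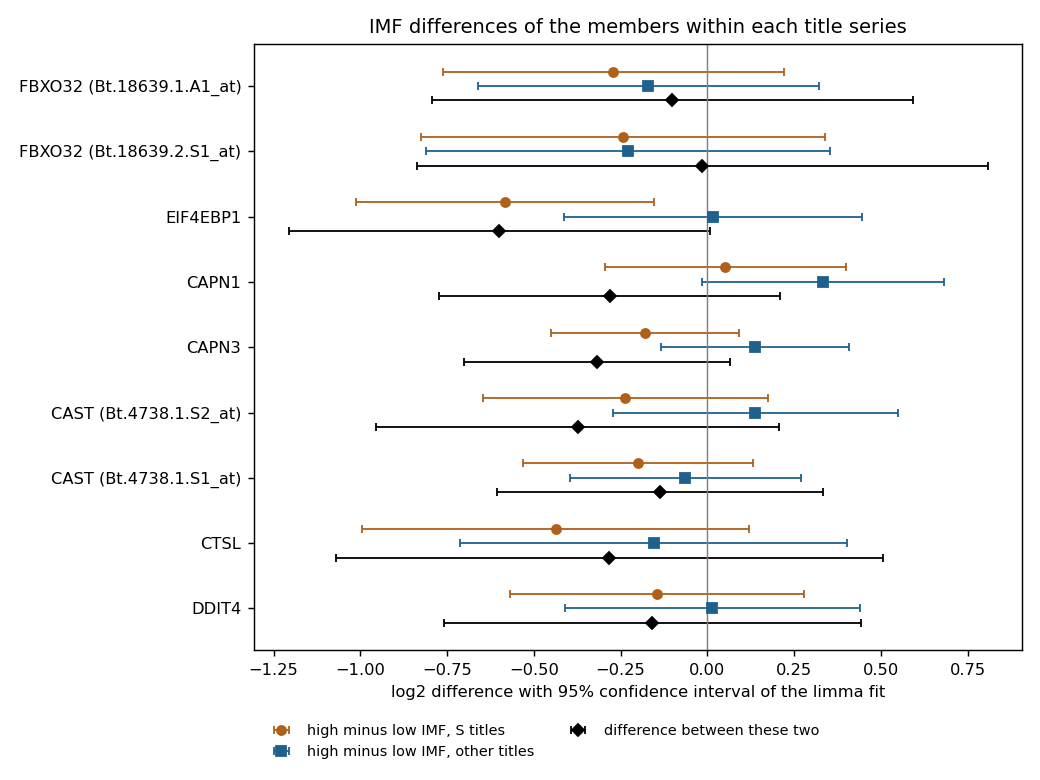
For each member probe set the points give the log2 difference of high minus low IMF in the S titles (circles) and the other titles (squares) and the difference between both (diamonds), with 95% confidence intervals of the limma fit. The interval of EIF4EBP1 in the S titles, from -1.01 to -0.15, is the only one drawn that leaves out 0, and the intervals are not adjusted for the number of probe sets.

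The 2 probe sets of FBXO32 ranked the animals alike, and the 2 of CAST did not. Across the 10 S titles the FBXO32 probe sets had a Pearson r of 0.974 (Spearman's rho 0.879, permutation p = 6e-05 and 0.0018), and 0.869 without the 2 animals farthest from the median. Across the 10 other titles r was 0.991 (rho 0.988, permutation p = 2e-05 for both), and 0.979 without 2 animals. The CAST probe sets had r = -0.159 in the S titles (rho -0.176, permutation p = 0.665 and 0.631) and -0.196 in the others (rho -0.0909, permutation p = 0.594 and 0.808). For this reason the values of CAST are given by probe set throughout.

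**Figure D3:**
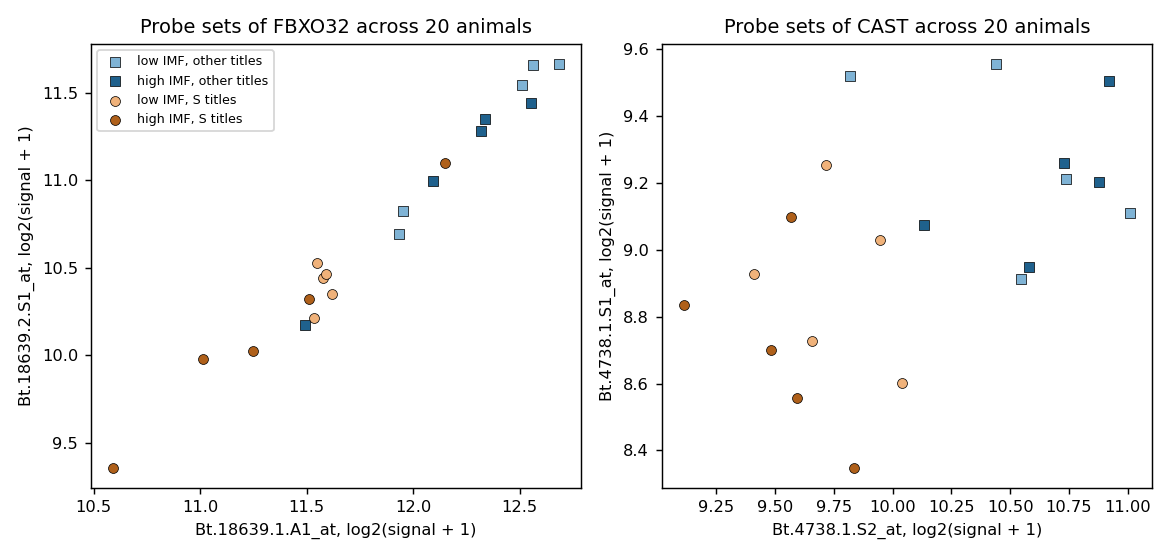
Both axes give log2(signal + 1), with the 2 probe sets of FBXO32 on the left and those of CAST on the right, 1 point for each of 20 animals, squares for other titles and circles for S titles. The FBXO32 points lie along 1 line through both series (r = 0.974 and 0.991 within them), and the CAST points show no line within either series (r = -0.159 and -0.196).

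Between the 7 genes, 1 probe set each, 42 relations were computed within the title series, and none passed after Benjamini-Hochberg adjustment (lowest adjusted p = 0.575 for Pearson's r and 0.271 for Spearman's rho). For genes with more than 1 probe set the brighter was used, Bt.18639.1.A1_at for FBXO32 and Bt.4738.1.S2_at for CAST. All CAST values in this paragraph belong to that probe set, and those of Bt.4738.1.S1_at were not computed. The animals fall into separate sets by title series, so no pooled correlation is given. The lowest p belonged to EIF4EBP1 and CAST in the other titles, with r = -0.708 (rho -0.782, permutation p = 0.0186 and 0.0106), and -0.517 without the 2 farthest animals. In the S titles that pair had r = 0.192 (rho 0.248, permutation p = 0.596 and 0.491). CAST and CTSL had r = 0.692 in the S titles (rho 0.624, permutation p = 0.0274 and 0.0599), which became 0.429 with centred arrays, and 0.35 in the others (rho 0.0545, permutation p = 0.323 and 0.892). Without the 2 farthest animals these were 0.615 and -0.823, so the value in the other titles rests on those 2 animals. FBXO32 and CAPN3 had r = 0.5 in the S titles (rho 0.77, permutation p = 0.138 and 0.0129) and -0.137 in the others (rho 0.0909). CAPN1 and CAPN3 had r = 0.516 in the other titles (rho 0.661, permutation p = 0.127 and 0.0428) and 0.267 in the S titles (rho 0.176). FBXO32 and EIF4EBP1 had r = 0.622 in the S titles (rho 0.6, permutation p = 0.0546 and 0.0734) and -0.431 in the others (rho -0.309, permutation p = 0.213 and 0.387). The adjusted p-values of r were 0.701 and 0.863 for this last pair, and leaving out the 2 farthest animals gave 0.477 and -0.531.

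The genes most like FBXO32 across the 20 arrays, among 7015 genes compared on centred values, were FBXL4, which encodes another F-box protein (r = 0.856, and 0.773 in S and 0.652 in other titles), UBE2G1, a ubiquitin-conjugating enzyme (0.848, and 0.768 and 0.547), and RNF103, a RING finger protein (0.847, and 0.496 and 0.935). RET, a receptor tyrosine kinase, was least alike (-0.867, and -0.797 and -0.62). All 20 points share the gap between title series in FBXO32, so these values describe the arrays and carry no test. DDIT4, which did not differ between the series, was most like PFKFB3, a glycolytic regulator (r = 0.765, and 0.895 in S and 0.744 in other titles). ID1, an inhibitor of DNA binding, followed (0.705, and 0.696 and 0.748), then SLC52A2, a riboflavin transporter (0.688, and 0.494 and 0.844). SH3YL1 was least like DDIT4 (-0.678, and -0.613 and -0.724).

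Genes that work with the members were read from 5 lists, with 1 probe set a gene. In the IMF comparisons and the interaction 0 of their 85 tested genes were called by limma, adjusted over all probe sets. At an unadjusted p under 0.05 there were 3 for the interaction, 8 for IMF in the S titles, 1 in the other titles and 5 averaged over both. Between the title series 66 of the 85 were called, beside 68.1% of all probe sets. Of 14 tested genes of ubiquitin ligation and handling, 13 were lower in high IMF among the S titles, beside 67.5% of all probe sets. Their median was -0.10, against -0.08 in all probe sets. In the other titles 7 of 14 were lower (median 0.01), beside 47.4% of all. The smallest interaction p belonged to UBR2, a ubiquitin ligase of the N-end rule pathway (-0.24, SE 0.14), STUB1, a chaperone-bound ligase (-0.21, SE 0.12), and TRAF6, a ligase of cytokine signalling (-0.19, SE 0.16). Between the title series 12 of the 14 passed, 5 higher and 7 lower in the S titles. STUB1 was higher by 0.88, the deubiquitinase USP19 by 0.83 and the mitochondrial ligase MUL1 by 0.76. UBR2 fell by 0.68 and the proteasome-bound deubiquitinase USP14 by 0.57.

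Of 26 autophagy and lysosome genes, 18 had lower values in high IMF in the S titles (median -0.10) and 11 in the others (median 0.03). Over all probe sets 67.5% and 47.4% were lower (medians -0.08 and 0.01). ULK1, the kinase that starts autophagy, differed by -0.34 in the S titles (SE 0.11, unadjusted p = 0.00578, adjusted p = 0.427) and by 0.04 in the others (SE 0.11), an interaction of -0.38 (SE 0.16, adjusted p = 0.866). PIK3C3, the lipid kinase of autophagosome formation, differed by -0.54 (SE 0.17, adjusted p = 0.427) in the S titles and by -0.0021 in the others. GABARAP, an autophagosome protein, had an interaction of -0.21 (SE 0.11). Between the title series 23 of 26 passed, beside 68.1% of all probe sets, 12 higher and 11 lower in the S titles. The lysosomal proteases CTSD (1.07) and CTSB (0.77) were higher in the S titles, against the direction of CTSL. MAP1LC3A (1.01) and GABARAP (0.56) were higher too, while MAP1LC3B, a second LC3 gene, was lower (-0.67). ATG5 (-0.82), ATG4A (-0.78), BECN1 (-0.77) and ATG14 (-0.75), which act in autophagosome formation and were named after their values were seen, were lower as well. ULK1 (0.74) and ATG4B (0.65), the latter also named after its value was seen, were higher, so genes of this step went both ways.

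Of 5 tested calpain-related genes 4 had lower values in high IMF in the S titles (median -0.02) and 2 in the others (median 0.02). Over all probe sets 67.5% and 47.4% were lower (medians -0.08 and 0.01). The interaction was -0.28 (SE 0.20) in CAPN5, -0.17 (SE 0.14) in CAPNS1, the small regulatory subunit that CAPN1 needs, and -0.13 (SE 0.15) in DES, the filament protein that calpains cut. CAPNS1 was higher in the S titles by 1.33 (SE 0.07, limma adjusted p = 4.12e-11), in the same direction as CAPN1. CAPN5 (0.83) and DES (0.39) were higher as well, and CAPN7 was lower (-0.71).

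Of 23 genes of insulin signalling and mTORC1 control of translation, 21 were lower in high IMF among the S titles, with a median of -0.12. In the others 11 were lower (median 0.0035). Over all probe sets 67.5% and 47.4% were lower (medians -0.08 and 0.01). SESN1, a stress-induced brake on mTORC1, differed by -0.79 in the S titles (SE 0.20, unadjusted p = 0.00077, adjusted p = 0.427) and by -0.24 in the others (SE 0.20), an interaction of -0.55 (SE 0.28, adjusted p = 0.866). The kinases AKT2 (-0.31, SE 0.17) and AKT1 (-0.26, SE 0.15) had the next smallest interaction p. Between the title series 17 of 23 passed, beside 68.1% of all probe sets, 8 higher and 9 lower in the S titles. AKT2 (0.88), RPS6KB2 (0.87), the second S6 kinase, and AKT1S1 (1.0), an mTORC1 subunit that restrains it, were higher in the S titles. RPS6KB1, the main S6 kinase, was lower (-1.24), and so was EIF2S1 (-0.90), the initiation factor that stress kinases phosphorylate.

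The list linked to FOXO factors or glucocorticoids had 17 tested genes, FOXO4 and the receptor gene NR3C1 among them. In high IMF 14 of the 17 had lower values in the S titles (median -0.16) and 10 in the others (median -0.07). Over all probe sets 67.5% and 47.4% were lower (medians -0.08 and 0.01). FOXO4, the one FOXO gene with a tested probe set in this list, had an interaction of -0.34 (SE 0.15, unadjusted p = 0.0289, adjusted p = 0.866), KLF15 one of -0.50 (SE 0.25) and CITED2 one of -0.42 (SE 0.29). Between the title series 10 of 17 passed, beside 68.1% of all probe sets, 6 higher and 4 lower in the S titles. The median over the 17 was 0.31. PDK4, the kinase that shuts off pyruvate oxidation and a FOXO target like FBXO32, was lower in the S titles by the widest margin of the genes named here (-2.01, SE 0.33, adjusted p = 2.84e-05). NR3C1, the glucocorticoid receptor, was lower (-1.13), as were HIF1A (-0.67) and GLUL (-0.40), which completes the lower calls. The 6 higher ones were FOXO4 (0.39), KLF15 (0.31), CEBPB (0.37), CEBPD (0.69), MT2A (0.39) and PIK3IP1 (0.49), of which the last 4 are outside the naming rule and were added after their values were seen.

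**Figure D4:**
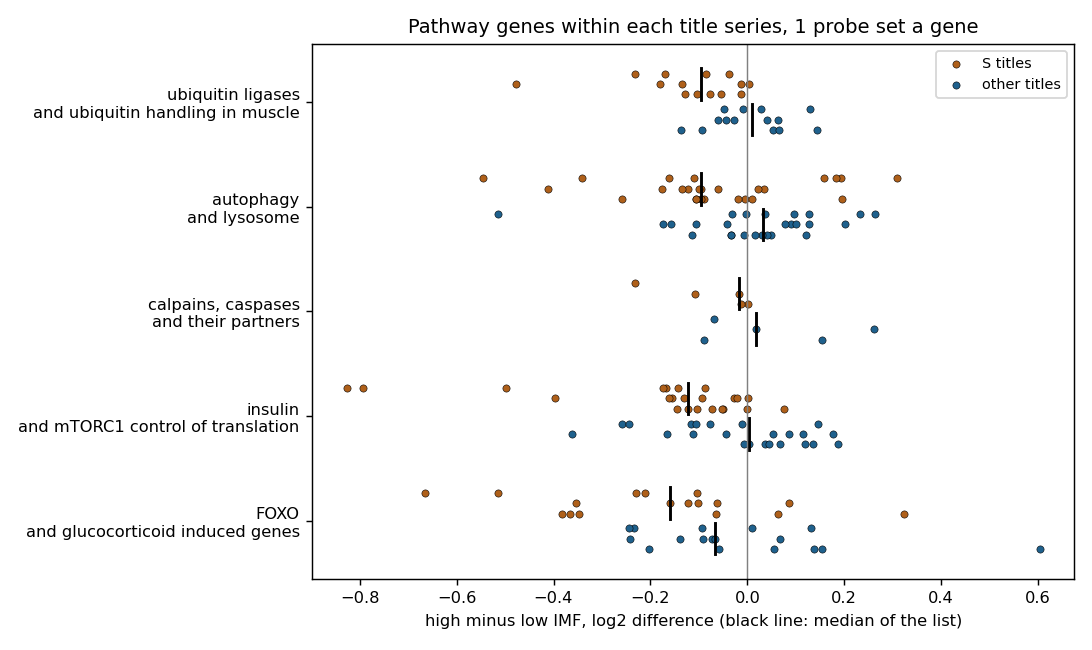
Each point is the log2 difference of high minus low IMF of 1 gene (1 probe set a gene), in the S titles (upper row of a list) and the other titles (lower row), and black lines mark the median of the list. In the S titles the medians run from -0.16 to -0.02, where the median of all probe sets is -0.08, and in the other titles from -0.07 to 0.03.

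The title series also differed in control RNAs that do not come from the animals. The bacterial transcripts bioB, bioC and bioD, which are added to the labelled sample before hybridisation, read lower on the S arrays by 0.82, 0.66 and 0.57 on the log2 scale (differences of -0.82, -0.66 and -0.57), and lys, a transcript added for the labelling step, read higher by 0.87. The other labelling transcripts did not move as one, with 0.44 for phe, -0.45 for thr and -0.09 for dap, and these overlapped. The control cre was also lower on the S arrays, with a difference of -0.35, and it overlapped too. None of bioB, bioC, bioD and lys overlapped between the 10 S and the 10 other arrays. The ratios of 3' to 5' probe sets, a measure of RNA integrity, overlapped, with differences of -0.04 for GAPDH and -0.19 for actin. Differences between the bulls of the title series and differences between the handling of their arrays cannot be told apart, which holds for each call between S and other titles given above. Between the IMF groups within a series, the 8 control transcripts differed by between -0.15 (lys, S titles) and 0.11 (bioB, other titles).

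**Figure D5:**
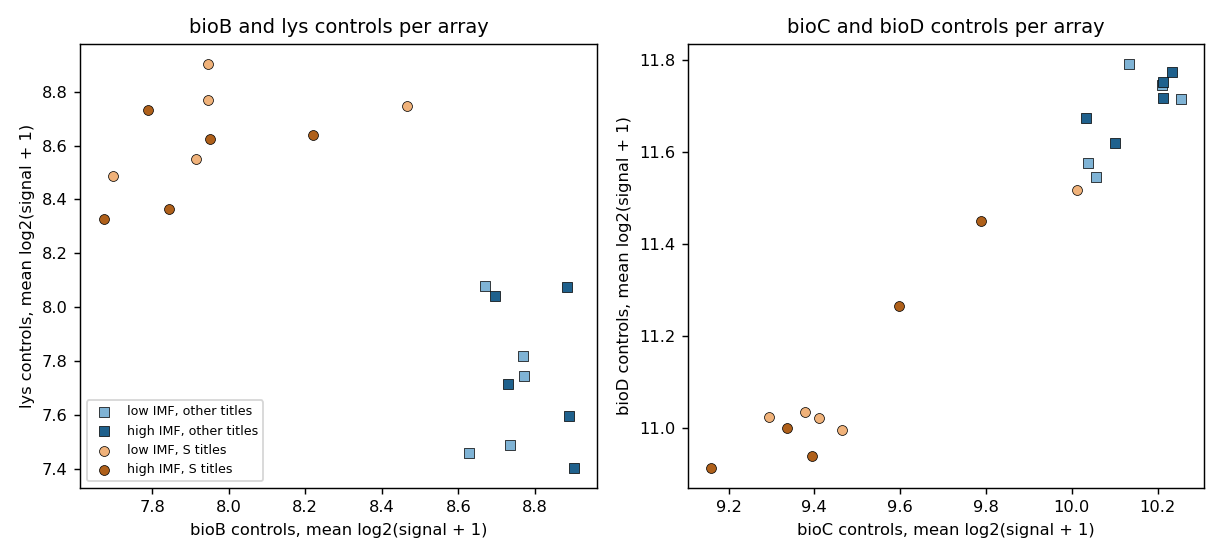
Points are arrays, squares for other and circles for S titles, by the mean log2(signal + 1) of the control probe sets of bioB and lys (left) and of bioC and bioD (right). On the left the S arrays lie below 8.47 in bioB and read at least 8.328 in lys, apart from the other arrays. Light and dark points, low and high IMF, are mixed within each series.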

How the data were processed

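Total RNA of 20 muscles was hybridised to an Affymetrix cattle array. Per the submitters' processing notes, GCOS 1.1.1 and Affymetrix Expression Console 1.1 were used. The sources used here do not name the method that turned probes into probe set values. The deposited table, judged by its range, holds intensities on a linear scale, and the scaling between arrays was left as the authors made it.

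Of 24128 probe sets, 112 controls were removed, and in the platform annotation 13292 of the other 24016 had 1 gene symbol, 86 several and 10638 none. The 40% of these 24016 with the lowest mean were left out of the tests. Values were taken as log2(value + 1) and fitted with limma 3.58.1 (R 4.3.3, lmFit and eBayes, two-sided), with 1 mean for each of the 4 combinations of IMF content and title series. P-values were adjusted by Benjamini-Hochberg over 14409 probe sets and called under 0.05. Single probe sets were also compared by exact permutation over 252 splits, and correlations by 100000 permutations. The series text names a paired test, but the labels pair no animals. The limma p-values set each difference against the spread between animals within the 4 combinations.

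The members, gene lists, naming rule and alternatives were chosen with earlier results of these data known. The rule named all members, the 3 genes of each list with the smallest interaction p and up to 5 called genes a comparison, and for FBXO32 and DDIT4 the 3 most and the 1 least alike genes. Tested on simulated data of 14409 probe sets, the fit recovered 10.4% of interactions of 0.5 log2 units, 55.2% of 1 unit and 100% of 2 units, with 3 false calls. For IMF in the S titles it recovered 23.9%, 79.1% and 100%.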

Additional observations from a re-analysis of the deposited data

Results flagged for a closer look

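In each of the 36 groups of 5 animals formed by the 9 member probe sets, IMF content and title series, the highest and the lowest value were tested for a gap from the rest with Dixon's test, and 0 groups had an outlying animal.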

How the results depend on the processing

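Of 369 values of the members under 9 other settings (2 other scalings, a pseudocount of 16, no filter, 2 other variance models, no title series, and without the 4 albumin or the 2 dimmest arrays), 357 kept their direction and their side of the threshold and 12 changed sign, none of which had passed the test. The interaction turned to 0.0194 (arrays centred) and 0.0393 (quantile) for FBXO32 on Bt.18639.2.S1_at, to 0.0227 without the albumin arrays for CAST on Bt.4738.1.S1_at, and to 0.1819 without the dimmest arrays for CTSL. Without the dimmest arrays the IMF difference in the S titles turned to -0.0137 for CAPN1 and 0.0273 for CTSL. In the other titles it turned to -0.051 for EIF4EBP1 without the albumin arrays. Averaged over both series it turned to 0.0177 (centred) and 0.0117 (quantile) for CAPN3, and for CAST on Bt.4738.1.S2_at to 0.0441 without the albumin and 0.0061 without the dimmest arrays. CAPN3 differed between S and other titles by -0.0152 without the dimmest arrays. The cause of these changes was not tested.

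Leaving out each array in turn changed the sign of 11 member values. The interaction ran from -0.313 to 0.0772 and from -0.2507 to 0.1844 for the probe sets of FBXO32. In the other titles the IMF difference ran from -0.0952 to 0.1561 for EIF4EBP1, from -0.0351 to 0.2668 and from -0.1511 to 0.0096 for the probe sets of CAST, and from -0.1046 to 0.1777 for DDIT4. Averaged over both series it ran from -0.0567 to 0.021 for CAPN3, from -0.1356 to 0.0154 for CAST on Bt.4738.1.S2_at and from -0.1392 to 0.0164 for DDIT4. Between S and other titles CAPN3 ran from -0.027 to 0.0507 and DDIT4 from -0.0583 to 0.0973. The number of probe sets called ran from 0 to 1 for IMF in the other titles and for IMF averaged over both series, with the 1 call in each without high IMF replicate 4. For EIF4EBP1 in the S titles the difference ran from -0.6568 to -0.4515, with adjusted p from 0.271 to 1 over all settings.

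No paired analysis was possible because the labels pair no animals. With 5 animals a cell and changes of 0.5 log2 units recovered in 23.9% of simulated cases within the S titles, a missed call does not show that the IMF groups were alike. CTSL lies near the dim end of the tested probe sets. A search of promoter letters was planned but not run.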
